A study of Mus musculus with 13 samples.

Results

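The glucocorticoid receptor (GR, encoded by *Nr3c1*) is a transcription factor that is activated by glucocorticoid hormones, moves into the nucleus and raises or lowers transcription of its target genes. Described here are 10 genes with large differences between fetal oocytes that lack GR in the whole embryo (KO) and wild-type oocytes (WT), out of 55335 genes in the count table and 13086 genes tested. They are *Rgl2*, *Dnaic1*, *Pxmp4*, *Rmi1* and *Mettl23*, which were lower in KO, and *Klhl1*, *Mrvi1*, *Acp1*, *Colgalt2* and *Tex13c2*, which were higher. The genes were picked by the KO and WT counts themselves, so their values in that comparison are a description and carry no test. Ordered by the p-value of the KO comparison, they are the first 5 genes among those higher in KO and genes 2 to 6 among those lower. *Rpl23a*, which encodes a ribosomal protein, stands first among the lower genes and is not one of the 10. The next gene outside the list was *Gm21738* on the lower side, with a log2 fold change of −1.53 (standard error, SE, 0.38), and *Hcrtr2* on the higher side, with 71, 38 and 95 counts in KO and 1, 0 and 2 in WT. All 10 genes passed the filter on low counts in the fit of all 13 libraries. With the KO and WT libraries alone, *Pxmp4*, *Mettl23* and *Mrvi1* did not pass it. Since a gene can pass through any group in which it is high, passing supports nothing.

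Germ cells carrying the transgene Tg(Pou5f1-EGFP)2Mnn were sorted from the ovary pair of single female embryos at E17.5, when oocytes are in meiotic prophase, and a 3' Tag-Seq library, whose reads lie near the ends of polyadenylated transcripts, was made from each embryo. WT (n = 3) and KO (n = 3) embryos carried either no deleted allele or 2 deleted alleles of *Nr3c1* and came from crosses of heterozygous parents, in a line made by deleting the floxed exon 3 of Nr3c1tm1.1Jda with a β-actin Cre. In the conditional model every embryo was homozygous for the floxed allele, and pregnant females were given tamoxifen (125 μg/g) at E10.5. The cKO embryos (n = 4) also carried Pou5f1tm1.1(cre/Esr1*)Yseg, which expresses a tamoxifen-activated Cre from the *Pou5f1* locus in germ cells, and the Cre-negative flox embryos (n = 3) did not. The share of cKO oocytes in which the allele recombined was not measured by these counts. The labels do not give litters or an inbred background, and WT and KO carry the same strain entry.

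Libraries held 2048706 to 3674989 counts, so that 1 count equalled 0.272 to 0.486 CPM (library totals adjusted by TMM factors). Genes of fetal oocytes summed to 11041 to 18044 CPM per library and genes of ovarian somatic cells to 125 to 455 CPM, with 9 of 10 oocyte genes detected (*Sycp3* was at 0). *Nr3c1* itself had 54 to 167 counts in KO and 61 to 216 in WT, a log2 fold change of −0.00 (SE 0.53). Tags from the end of the transcript would lie outside the deleted exon, but whole gene intervals were counted and read positions were not examined. These counts therefore do not check the deletion. The paper reports loss of GR in KO by immunofluorescence, immunoblot and qRT-PCR. It also reports *Nr3c1* transcript as depleted in KO ovarian cell types in single-cell data from 3' reads, unlike these counts. The cause of that difference was not tested. The number of genes with at least 1 count was 12946 to 13544 in KO and 13841 to 14721 in WT, without overlap, and 13460 to 14511 in cKO and 13872 to 15629 in flox, with overlap. No molecular identifiers are described, so reads are not independent molecules. No 2 libraries of a group agreed within sampling noise (chi-square per degree of freedom 22.5 or more).

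**Figure D1:**
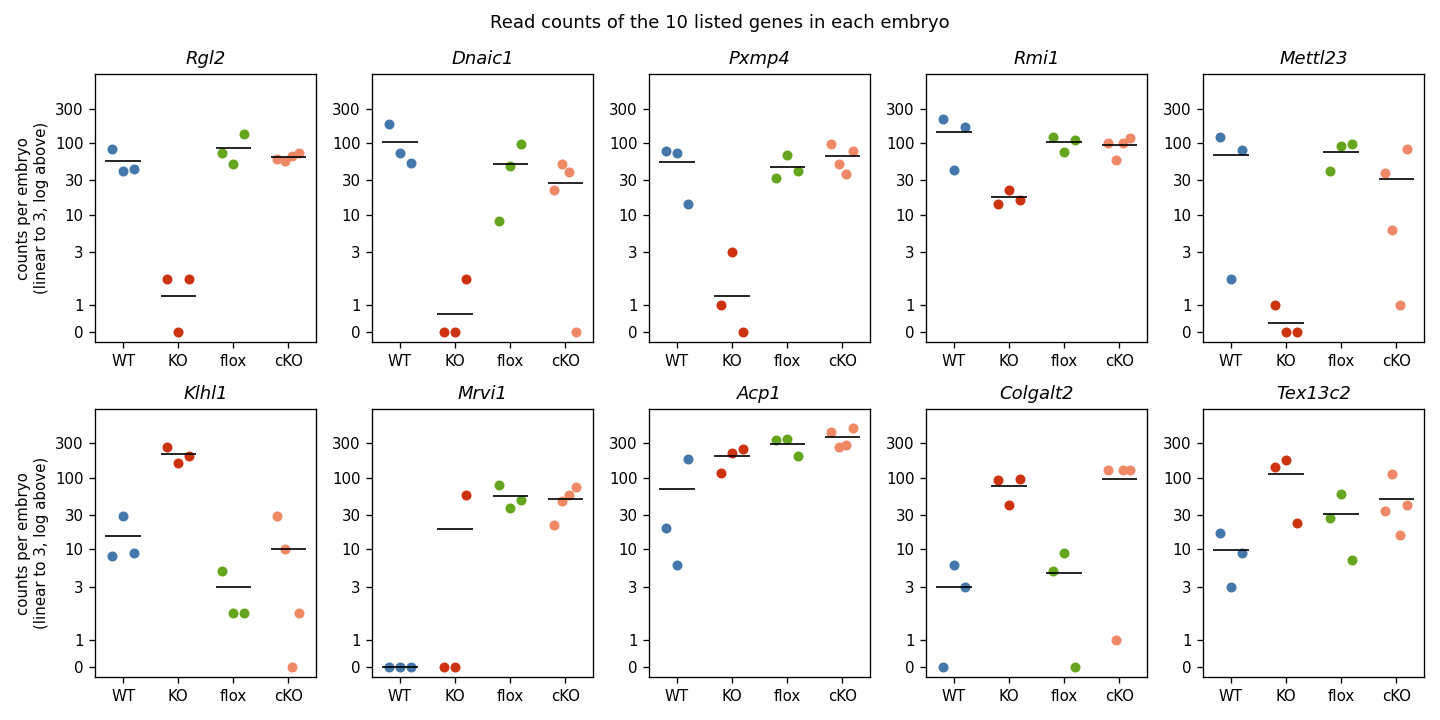
Read counts of each listed gene (1 panel per gene) in each embryo (dots) of the 4 groups; the line is the group mean and the vertical axis is linear up to 3 counts and logarithmic above. KO embryos lie below all 10 other embryos for Rgl2, Pxmp4 and Rmi1 and above all of them for Klhl1. For Mrvi1, Acp1, Colgalt2 and Tex13c2 the group with the lowest mean is WT.

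The counted feature was the whole gene interval with its introns, of which exons make up 3.83% for *Colgalt2*, 4.07% for *Dnaic1* and 5.98% for *Mrvi1*, less still for *Klhl1*, against 73.8% for *Rmi1* and 100% for *Tex13c2*. RefSeq promoter windows (GRCm38.p6, 250 bases before to 50 bases after a start) were matched to 8 of the 10 genes, with 10 windows in all. They were searched on both strands for the glucocorticoid response half-site AGAACA, which reads as TGTTCT on the other strand, and for the full palindrome, in which these letters face each other 3 bases apart. A half-site was in 2 of these 10 windows, for *Mrvi1* and *Dnaic1*, and in 19.0% of all 32851 windows of this length, and the palindrome was in 0 of the 10 and in 3 of all windows. Shown here, 5′ to 3′ on the gene's strand, are the window parts before the annotated gene for *Pxmp4*, which was lower in KO than in every other embryo, for *Klhl1*, which was higher in KO than in every other embryo, and for *Mrvi1*, which has a half-site before its start, with the half-site in capitals.
Pxmp4, chr2:154603709-154603923, minus strand: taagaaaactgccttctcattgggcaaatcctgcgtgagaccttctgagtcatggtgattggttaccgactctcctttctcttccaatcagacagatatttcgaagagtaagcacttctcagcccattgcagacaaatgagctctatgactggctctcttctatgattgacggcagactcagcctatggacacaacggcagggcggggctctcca
Klhl1, chr14:96519103-96519284, minus strand: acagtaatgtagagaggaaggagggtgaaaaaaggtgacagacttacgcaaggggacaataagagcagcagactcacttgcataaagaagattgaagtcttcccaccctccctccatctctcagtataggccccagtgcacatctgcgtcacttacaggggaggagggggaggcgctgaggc
Mrvi1, chr7:110982462-110982711, minus strand: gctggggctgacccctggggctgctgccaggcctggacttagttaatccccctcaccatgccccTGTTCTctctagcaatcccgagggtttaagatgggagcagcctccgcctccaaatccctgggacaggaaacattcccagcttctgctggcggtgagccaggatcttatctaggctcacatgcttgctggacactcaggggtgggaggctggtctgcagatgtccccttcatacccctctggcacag
The *Mrvi1* half-site starts 186 bases before the RefSeq start. A match of these letters is a description of the window and not a binding site.

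Of the genes with roles in signalling, *Rgl2* was at or near 0 in KO oocytes, whereas *Acp1* was low in 2 of 3 WT embryos and *Mrvi1* was at 0 in 5 of the 6 embryos of the constitutive cross. *Rgl2* (ENSMUSG00000041354.16, mm10 chromosome 17, 33929543 to 33937687) encodes an exchange factor that activates the small GTPases RalA and RalB downstream of Ras, and no other gene overlaps it. It had 83, 40 and 43 counts in the 3 WT embryos and 2, 0 and 2 counts in the 3 KO embryos. It had 73, 50 and 134 counts in flox and 59, 56, 65 and 72 counts in cKO embryos, so that KO embryos were below each of the other 10. Summed over embryos, the scaled WT to KO ratio was 36.0, a description of the counts that picked the gene. In CPM the order was flox (39.3 ± 22.6, SD, n = 3), cKO (22.8 ± 1.98, n = 4), WT (22.5 ± 12.9, n = 3) and KO (0.547 ± 0.477, n = 3), and the first 3 groups overlapped. Between cKO and flox, which were not used to pick the gene, the log2 fold change was −0.79 (SE 0.76), with overlap (two-sided exact permutation test, p = 0.0857). Without flox replicate 3 this log2 fold change was −0.21. Of 13 other genes of the Ral GTPase cycle, 10 were tested, and 0 were called in either model. The *Rgl2* paralog *Rgl1* had 9 to 48 counts in the KO embryos, against 41 to 148 in WT, 35 to 182 in cKO and 67 to 97 in flox. Its log2 fold change for KO was −2.06 (SE 0.77), which was not called (edgeR, Benjamini-Hochberg adjusted p = 0.847). *Ralgapa2*, a subunit of a Ral inactivating complex, had the lowest p of this list in the conditional model, with a log2 fold change of −0.60 (SE 0.33).

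*Mrvi1* (ENSMUSG00000005611.15, chromosome 7, 110868266 to 110982461) encodes a substrate of cGMP-dependent kinase that binds the inositol trisphosphate receptor. It had 0 counts in all 3 WT embryos and 0, 0 and 58 counts in KO, so its place on the list rests on KO replicate 3, and without that embryo both groups were at 0. In these sorted pools, fewer cells with a transcript and less transcript per cell cannot be told apart. In flox it had 79, 38 and 49 counts and in cKO 22, 47, 57 and 75 counts. Every embryo of the conditional cross was thus above 5 of the 6 embryos of the constitutive cross. The share of all genes with this pattern was not counted. The flox mean was at least 20.7-fold above WT, with the WT level set to a floor of 3 counts per library. Flox and WT embryos differ in cross, floxed allele and tamoxifen, which cannot be told apart here. The cKO to flox log2 fold change was −0.44 (SE 1.30), with overlap (two-sided exact permutation test, p = 0.429). Of 6 genes for inositol trisphosphate receptors, cGMP kinases and the *Mrvi1* paralog *Lrmp*, 4 were tested and 0 were called in either model. The lowest conditional p among them was that of the receptor gene *Itpr3*, with counts of 3 to 40 (cKO) and 1 to 7 (flox), a log2 fold change of 2.49 (SE 1.76).

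*Acp1* (ENSMUSG00000044573.16, chromosome 12, 30893326 to 30911589) encodes the low molecular weight protein tyrosine phosphatase. It had 20, 6 and 180 counts in WT and 116, 223 and 253 counts in KO. WT replicate 3, the deepest library, lies within the KO range of counts, and the scaled levels of the groups overlapped too. Flox embryos had 336, 348 and 202 counts and cKO embryos 427, 267, 281 and 493 counts, so that 2 of the WT embryos stand below all 11 others. The levels were 20.2 ± 25.1 CPM in WT, 87.9 ± 38.0 in KO, 132 ± 29.7 in flox (SD, n = 3 each) and 131 ± 33.2 in cKO (n = 4). The KO to WT log2 fold change was 2.08 (SE 0.61) and ranged from 1.59 without WT replicate 2 to 3.90 without WT replicate 3. Between cKO and flox it was −0.00 (SE 0.54, 95% interval −1.12 to 1.11). Of 6 other cytosolic tyrosine phosphatase genes, 5 were tested, and 0 were called in either model. *Ptpn11*, which encodes the phosphatase SHP2, had the lowest conditional p of these, at 80.3 ± 19.6 CPM in cKO (n = 4) and 40.5 ± 8.63 CPM in flox (n = 3), and was not called (edgeR, adjusted p = 0.9998).

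Of the genes that act on DNA and chromatin, *Rmi1* was low in all 3 KO embryos and higher in every embryo of the conditional cross. *Mettl23* was uneven within WT and within cKO. *Rmi1* (ENSMUSG00000035367.9, chromosome 13, 58402248 to 58411148) encodes a subunit of the BLM and TOP3A complex, which separates DNA molecules joined by double Holliday junctions during recombination. It had 215, 42 and 165 counts in WT and 14, 22 and 16 counts in KO. In flox it had 121, 75 and 111 counts and in cKO 98, 57, 100 and 115 counts, so that KO embryos were below each of the other 10. Its level was 7.68 ± 2.75 CPM in KO, against 53.4 ± 38.2 in WT, 46.1 ± 11.1 in flox (SD, n = 3 each) and 33.1 ± 7.63 in cKO (n = 4). The KO to WT log2 fold change was −2.79 (SE 0.68), and that of cKO against flox was −0.47 (SE 0.58), with overlap (two-sided exact permutation test, p = 0.229). *Hnrnpk* on the opposite strand overlaps 12.3% of the *Rmi1* interval. Its own KO to WT log2 fold change was 0.53 (SE 0.36). Among the partners of RMI1, the helicase gene *Blm* had 62 to 242 counts in KO and 199 to 349 in WT, a log2 fold change of −0.70 (SE 0.49). *Top3a* had 0 to 55 counts in KO and 11 to 92 in WT (−0.71, standard error 1.41). *Rmi2* had 7 to 46 counts in KO and 0 to 31 in WT (1.52, standard error 1.65). All 3 partners were tested and 0 were called in either model.

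*Mettl23* (ENSMUSG00000090266.10, chromosome 11, 116843278 to 116854263) encodes a methyltransferase for which histone arginine methylation in oocytes has been described. It had 122, 2 and 79 counts in WT and 1, 0 and 0 counts in KO, so that WT replicate 2 was next to the KO embryos. Low counts were also found in the conditional cross, with 38, 6, 1 and 82 counts in cKO and 40, 91 and 96 in flox. The scaled WT to KO ratio was 176, with a single KO count behind it. The log2 fold change of cKO against flox was −1.64 (SE 1.13), with overlap (two-sided exact permutation test, p = 0.143). It was −2.66 with limma voom and −2.70 without cKO replicate 4, and it was not called in either. *Jmjd6*, *Srsf2* and *Mfsd11* together overlap 41.3% of the *Mettl23* interval, so its reads and theirs may not have been told apart, and *Mfsd11* lies on the same strand. The neighbour *Jmjd6* had a log2 fold change of 0.16 (SE 0.46) and *Mfsd11* one of −0.82 (0.65) in the KO comparison. Of 9 arginine methyltransferase genes, 8 were tested and 0 were called in either model, and *Prmt1*, the main asymmetric arginine methyltransferase, had the lowest conditional p, with a log2 fold change of −0.73 (SE 0.38).

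Of the genes for organelles and the cytoskeleton, *Dnaic1* and *Pxmp4* were near 0 in KO, and *Klhl1* was high in KO alone. *Dnaic1* (ENSMUSG00000061322.15, chromosome 4, 41569775 to 41638158) encodes an intermediate chain of the axonemal dynein that drives beating of motile cilia. It had 182, 72 and 52 counts in WT and 0, 0 and 2 counts in KO. In flox it had 8, 48 and 95 counts and in cKO 22, 50, 39 and 0 counts, so that cKO replicate 4 had no more than the KO embryos. The scaled WT to KO ratio was 133. In the conditional cross the log2 fold change was −1.18 (SE 1.11), with overlap (two-sided exact permutation test, p = 0.457), and −0.24 without flox replicate 3. Genes of mesonephric and ciliated epithelium summed to 5.58 to 43.6 CPM in WT and 15.8 to 28.2 CPM in KO, with 4 of 5 detected. *Foxj1*, the regulator of motile cilia, had 0 counts in WT and flox, 0 to 11 in KO and 0 to 6 in cKO, and *Pax2* had 0 counts in every library. Of 10 other axonemal dynein and cilia genes, 5 were tested and 0 were called in either model. *Dnaaf1*, a dynein assembly factor, had the lowest conditional p, with counts of 6 to 45 (cKO) and 25 to 127 (flox).

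*Pxmp4* (ENSMUSG00000000876.11, chromosome 2, 154585758 to 154603708) encodes a peroxisomal membrane protein, and no other gene overlaps it. It had 76, 71 and 14 counts in WT and 1, 3 and 0 counts in KO. In flox it had 32, 67 and 41 counts and in cKO 96, 50, 37 and 77 counts, all above the KO embryos. The scaled WT to KO ratio was 34.9. The levels of WT, flox and cKO lay close together, at 23.8 ± 17.3, 21.1 ± 8.19 (SD, n = 3 each) and 23.2 ± 8.53 CPM (n = 4), and the cKO to flox log2 fold change was 0.14 (SE 0.92, 95% interval −1.75 to 2.04). Of 19 other peroxisomal genes, 17 were tested and 0 were called in either model.

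*Klhl1* (ENSMUSG00000022076.10, chromosome 14, 96102736 to 96519102) encodes a kelch-like actin-binding protein known from neurons. KO embryos had 270, 162 and 200 counts, and WT embryos had 8, 29 and 9. Flox embryos had 5, 2 and 2 counts and cKO embryos 29, 10, 0 and 2 counts, so that KO embryos were above each of the other 10. The log2 fold change of KO over WT was 3.77 (SE 1.09), and the order of the mean levels was KO, then WT (6.61 ± 6.30 CPM), cKO (3.66 ± 4.58) and flox (1.32 ± 0.685), of which the last 3 overlapped. For cKO over flox it was 1.43 (SE 1.07), a value of 0.19 without cKO replicate 1 and 0.13 with limma voom. Of 22 other kelch-like genes, 21 were tested and 0 were called in either model. *Klhl8* had the lowest conditional p, with a log2 fold change of 0.66 (SE 0.42) in cKO and 0.96 (0.45) in KO.

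The remaining 2 genes, which encode a collagen-modifying enzyme and a germ cell protein, were higher in KO than in WT and uneven in the conditional cross. *Colgalt2* (ENSMUSG00000032649.14, chromosome 1, 152399830 to 152510695) encodes a galactosyltransferase that adds galactose to hydroxylysine of collagen. It had 0, 6 and 3 counts in WT and 93, 42 and 97 in KO. In the conditional cross it had 5, 9 and 0 counts in flox and 127, 1, 127 and 128 counts in cKO, so that 3 of 4 cKO embryos were above every flox embryo and cKO replicate 2 was at the flox level. The levels were 32.8 ± 11.3 CPM in KO and 33.8 ± 22.3 CPM in cKO (n = 4), against 1.23 ± 1.48 CPM in WT and 2.04 ± 2.00 CPM in flox (SD, n = 3 for each group but cKO). The log2 fold change was 4.72 (SE 1.41) for KO and 4.01 (SE 1.32, 95% interval 1.29 to 6.73) for cKO. The cKO difference was not called by edgeR (unadjusted p = 0.00557, Benjamini-Hochberg adjusted p = 0.9998). The exact permutation test over embryos, two-sided, gave p = 0.114. Leaving out single embryos moved this log2 fold change between 3.46 and 4.91. *Colgalt1*, the paralog, had 0 to 15 counts in KO, 0 to 77 in WT, 0 to 74 in cKO and 12 to 33 in flox. All 7 genes of collagen lysine and proline modification were tested and 0 were called in either model, with the lowest conditional p for the prolyl hydroxylase gene *P4ha2*, with counts of 0 to 5 (cKO) and 0 to 24 (flox).

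*Tex13c2* (ENSMUSG00000105993.1, chromosome X, 42489691 to 42491524) belongs to a family of X-linked genes expressed in germ cells, whose copies can share reads, so its counts are uncertain. It had 17, 3 and 9 counts in WT and 141, 178 and 23 counts in KO. In flox it had 27, 60 and 7 counts and in cKO 34, 112, 16 and 41 counts, a range that overlaps KO replicate 3. The log2 fold change was 3.71 (SE 1.09) for KO against WT and 0.45 (SE 0.92) for cKO against flox, and the latter was −0.37 without cKO replicate 2. Of 4 other family members in the table, *Tex13a*, *Tex13c1* and *Tex13c3* had 0 counts in every library. *Tex13b* had 508 to 1233 counts in KO and 643 to 1205 in WT, a log2 fold change of −0.07 (SE 0.37).

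Comparing cKO with flox asks whether these genes also differed when GR was deleted in germ cells alone. Of the 10 genes, 0 were called at an adjusted p-value ≤0.05 by edgeR, as were 0 of all 13086 genes tested (percent called 0.0), and 1 gene, *Colgalt2*, had an unadjusted p under 0.05, against 3.19% of all genes. The adjusted p of all 10 was 0.9998. In none of the 10 did the cKO and flox levels fall apart without overlap, against 4.97% of all genes (2.18% higher and 2.79% lower in cKO), and the lowest of the 10 exact permutation p-values was 0.0857, where 4 embryos against 3 allow no p under 0.0286. In the KO comparison, which chose the genes, 8 of the 10 had levels that did not overlap, against 9.46% of all genes (3 higher in KO, against 3.79%, and 5 lower, against 5.67%), and 0 were called (percent called 0.0). For *Mettl23*, 1 of the 5 lower, this rests on 2 counts in WT replicate 2 and 1 count in KO replicate 1. Both are under 3 counts and cannot be told from 0. KO embryos lay below all 10 other libraries for 3 of the 10 genes, against 0.55% of all genes, and above them for 1, against 0.367%. This needs KO to lie apart from WT, for which the genes were picked, so it is a description with no test. The 2 comparisons share no embryo. The sign was the same in both for 7 of the 10 genes, 4 of the 5 lower and 3 of the 5 higher in KO, and for 52.2% of all genes. This number is not firm. Over the 13 fits without 1 library, the cKO sign turned in 10 for *Acp1*, in 2 for *Pxmp4* and in 2 for *Tex13c2*. The median absolute log2 fold change of cKO against flox was 0.63 for the 10 genes and 0.44 for all genes. For 9 of the 10 genes the fitted KO value lay outside the 95% interval of the cKO value, and for *Colgalt2* it lay inside. Since the genes were picked for large KO values, this count is a description and not a test of a difference between the models.

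**Figure D2:**
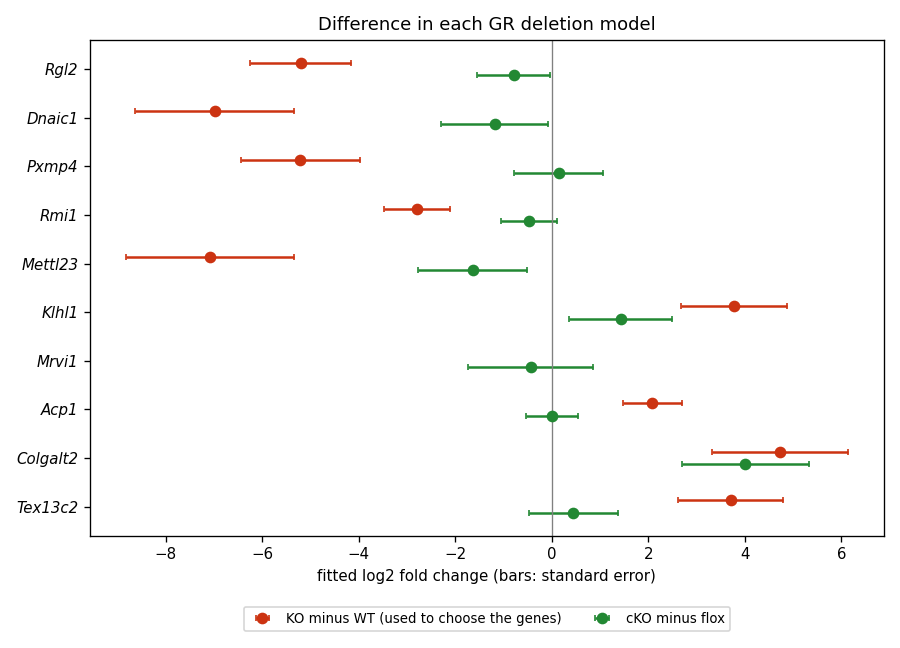
Fitted log2 fold change (horizontal axis) of each listed gene for KO minus WT (red) and cKO minus flox (green), with bars of 1 standard error; the KO value of Mrvi1 is left out because WT was at 0 in every embryo. Green points lie nearer to 0 than red ones for all 9 genes with both, and the 2 points lie close together for Colgalt2 only.

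The list was then set against how often zeros occur. Of the 30 values of the 10 genes in each group of 3 embryos, 8 were 0 in KO, 4 in WT and 1 in flox, and 2 of 40 were 0 in cKO. The share of single values at 0 over all genes was not counted, so these numbers have no background. By another measure, 354 (2.71%) of all 13086 tested genes were at 0 in every KO library, 178 (1.36%) in every WT library and 115 (0.879%) in every flox library. Of the listed genes, 0 were at 0 in every KO library, 1 (*Mrvi1*) in every WT library and 0 in every flox library. An all-or-none shape, with at most 3 counts in every embryo of 1 group and at least 20 in every embryo of the other, was found for 16 genes low in KO and high in WT, of which *Rgl2* and *Dnaic1* are listed, and for 4 genes low in WT and high in KO. Between cKO and flox, 0 genes had this shape in either direction. Between the control groups, 2 genes were low in flox and 3 were low in WT, with *Mrvi1* among the latter. KO libraries thus held both fewer detected genes and more genes at 0, and the part of this in the low values of the listed genes was not tested.

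In the 7 embryos of the conditional cross, which were not used to pick the genes, a 0 was common at some of these levels. Of 2086 genes with a mean count within 1.5 times that of *Dnaic1*, 21.9% had a library at 0, and for *Klhl1*, the lowest, this was 90.0% of 2177 genes. The share was 7.66% for genes like *Pxmp4*, 3.01% for genes like *Rgl2* and 0.891% for genes like *Rmi1*. *Rmi1* was even among these 7 embryos, with a ratio of variance to mean of 5.50, where the median of 2469 genes of like level was 22.5. *Colgalt2* was uneven, with a ratio of 77.1 and a median of 20.6 over 2210 genes. Its ratio was above that of 99.0% of them.

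The 10 genes lie on 10 different chromosomes, and none lies on chromosome 18, which carries *Nr3c1*. Genes near the 10 on their chromosomes were next compared. Within 1 Mb of a listed gene lay 169 other tested genes, from 0 around *Klhl1* to 47 around *Rgl2*. None was called in the KO comparison (0 of 169), where 5 (2.96%) had an unadjusted p under 0.05, against 5.82% of all genes. Their median log2 fold change was 0.05. Around *Rgl2*, which lies in the major histocompatibility region, 25 neighbours were higher and 22 lower in KO, with a median of 0.06, and the nearest on either side, *Tapbp* and *Pfdn6*, had log2 fold changes of 1.08 (SE 2.18) and −0.35 (0.61). Around *Pxmp4*, 14 of 22 neighbours were higher in KO, and *E2f1*, the nearest named one, had a log2 fold change of 0.32 (SE 0.41). Around *Dnaic1* 8 of 18 neighbours were higher, and *Enho*, which overlaps its end on the opposite strand, had a log2 fold change of −2.54 (SE 1.91). *Rgl1*, described above, is 1 of the 5 neighbours with a low p and lies 116930 bases from the start of *Colgalt2*. The others were *Dxo* near *Rgl2*, *Evpl* near *Mettl23* and *Gm40968* near *Rmi1*, which were lower in KO, and *Ampd3* near *Mrvi1*, which was higher. These were named after their values were seen.

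**Figure D3:**
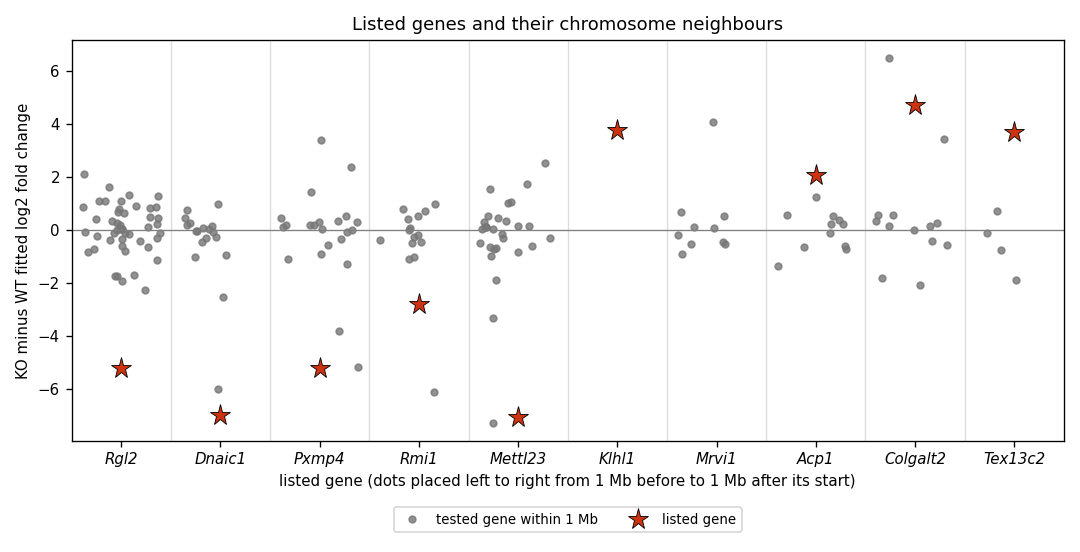
Fitted log2 fold change of KO minus WT (vertical axis) for each listed gene (star) and for the tested genes within 1 Mb of it (dots, placed left to right by distance of their starts); Mrvi1 has no star because WT was at 0, and Klhl1 has no tested neighbour. Neighbours lie on both sides of 0, a few of them as far out as the stars (Evpl near Mettl23 at −7.28, SE 3.09), while the stars of the same columns lie between −7.08 and 4.72.

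WT and KO embryos came from crosses of heterozygous parents and carry the same strain entry. Their inbred background was not given, so differences in background between single embryos cannot be read from the labels. Of 8 genes known to differ between inbred mouse strains, 6 were in the table, 4 of them with at most 2 counts in every library, and 2 were tested. *Alad*, whose copy number differs between strains, had 32, 136 and 94 counts in KO and 199, 92 and 205 in WT, with overlap. *Wdfy1* had 330, 45 and 29 counts in KO and 179, 262 and 506 in WT, a log2 fold change of −1.09 (SE 0.58), which edgeR did not call (adjusted p = 0.858). The part of strain in the values of the listed genes was not tested.

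Across the 13 libraries, the tested gene whose log2 CPM followed each listed gene most closely was also sought. These libraries include the KO and WT embryos that picked the listed genes, so the values are a description with no test. For *Rgl2* it was *Pxmp4*, another of the 10 (Pearson r = 0.88, Spearman rho = 0.53), and both were picked for low KO counts. For *Rmi1* it was *Ttc27* (r = 0.95, rho = 0.91), with 29 to 47 counts in KO and 46 to 268 in WT, and for *Colgalt2* it was *Anp32a* (r = 0.94, rho = 0.82), with 62 to 71 counts in KO, 6 to 34 in WT, 9 to 88 in cKO and 7 to 16 in flox. For *Klhl1* it was the checkpoint kinase gene *Chek1* (r = 0.88, rho = 0.74), with 214 to 320 counts in KO, 141 to 224 in WT, 169 to 221 in cKO and 120 to 122 in flox. The others were *Dennd1b* for *Dnaic1*, *Eif6* for *Pxmp4*, *Mrps18a* for *Mettl23*, *Lrch1* for *Mrvi1*, *Fggy* for *Acp1* and *2810414N06Rik* for *Tex13c2*, with r from 0.84 to 0.93. Each is the highest value over all other tested genes, and over all tested genes the median of this highest r was 0.88, so that values of this size are common in 13 libraries. Over the 7 libraries of the conditional cross, the 45 pairs of listed genes had r between −0.80 (*Tex13c2* and *Rmi1*) and 0.73 (*Rmi1* and *Rgl2*), with a median of −0.10.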

How the data were processed

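The authors trimmed adapters with cutadapt, aligned reads to mm10 with STAR 2.6.0 and counted them with featureCounts 1.6.3. The deposited table holds raw counts per gene, and its length column equals the span from start to end for all 55335 genes, so that whole gene intervals were counted. The annotation, strand and overlap settings are not given in the sources used here. The 2 deposited comparison tables (fold changes, t statistics and p-values of the authors) were not used. Symbols and coordinates come from GENCODE M21 on mm10, which named 54587 genes, each with the same start and end.

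Groups follow the sample titles. Genes were filtered by filterByExpr (minimum count 10, total 15), normalized by TMM and tested with the quasi-likelihood F test of edgeR 4.0.16 (R 4.3.3) in 1 fit of all 13 libraries with a mean per group, adjusted by Benjamini-Hochberg over 13086 genes. Levels are given in CPM (mean ± SD), with a prior count of 2 for log2 values. Fitted fold changes of genes near 0 depend on the default prior count of the edgeR fit, which is a separate setting, and are not bounds. Ratios of summed counts are therefore given for some genes. These ratios describe the counts that chose the genes and have no interval, since libraries of a group differed beyond sampling noise. Single genes were tested by exact permutation of log2 CPM means, on the absolute difference. The listed genes, partner lists and windows were chosen with earlier results of these data known. Named are the 10 genes, the partner with the lowest conditional p of each role list (1 is not reported here) and fixed paralogs or partners, flanking genes within 1 Mb, and the most correlated gene of each. Alternatives were RLE normalization, limma 3.58.1 voom, DESeq2 1.42.0, no filter, fits of only 2 groups, a replicate block and fits without 1 library. Same-numbered libraries did not deviate together (correlations of −0.02 to 0.06), so they were not treated as pairs. The labels call embryos biological replicates and do not name litters.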

Additional observations from a re-analysis of the deposited data

Results flagged for a closer look

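Within the 4 cKO embryos, 1 of the 10 genes had an embryo far from the others. For *Colgalt2*, the gap between cKO replicate 2 and the next embryo was 0.943 of the whole range of CPM, above Dixon's 95% critical value for 4 samples. Chance alone flags about 1 in 20 groups. That embryo had 1 count, where the other 3 had 127 to 128. Groups of 3 embryos were not examined in this way.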

How the results depend on the processing

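Between cKO and flox, 0 of the 10 genes were called under every alternative and without any 1 of the 13 libraries (lowest and highest number 0). Over all genes, DESeq2 called 5 there and the unfiltered fit 11, and 0 in the fits without 1 library. Between KO and WT, which chose the genes, 15 genes were called without the filter, 4 of them listed, and 12 with DESeq2, 5 of them listed. The fits without 1 library called 0 to 2 genes there, of which 0 to 1 were listed, the 1 being *Acp1* without WT replicate 3. The fit with the replicate block called 0 genes in both comparisons, and it changed no call. It turned the cKO value of *Pxmp4* to −0.045 and moved that of *Mettl23* from −1.64 to −3.76, that of *Dnaic1* from −1.18 to −0.53 and that of *Mrvi1* from −0.44 to −0.92. *Klhl1* gave no value in the fit of only cKO and flox, where it was under the filter. In the fit of only KO and WT, *Pxmp4*, *Mettl23* and *Mrvi1* gave none for the same reason. The cKO value of *Acp1* was close to 0 and turned positive with RLE (0.0045), without the filter (0.020), with only the 2 groups (0.010) and with DESeq2 (0.0069). Leaving out 1 library moved it between −0.17 and 0.13, that of *Pxmp4* between −0.092 and 0.47, and that of *Tex13c2* between −0.37 and 1.35. With at least 10 in place of 20 counts in the high group, the all-or-none genes numbered 50 low in KO, 8 low in WT against KO, 19 low in WT against flox, 10 low in flox against WT, and 2 each for cKO and flox. No causes were tested. With 3 or 4 embryos a group and 0.272 to 0.486 CPM per count, a level under 3 counts could not be told from 0.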
